A study of Mus musculus with 4 samples.

Results

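In the brain on day 3 after photothrombotic injury (PTI), 434 cells carried high levels of at least 3 of the genes Gpnmb, Arg1, Fabp5 and Spp1 and few of the genes that mark resident microglia. They made up 9.43% of the 4601 cells of that library that passed the filter on cells (exact binomial 95% interval 8.60 to 10.3), out of 14586 such cells in all libraries. A cell was chosen when at least 3 of these 4 genes stood at 1.5 or more on the natural log scale of the deposited values, when at most 2 of the 6 homeostatic microglia genes P2ry12, Tmem119, Gpr34, Olfml3, Crybb1 and Siglech were above 0, and when Cd3e, Cd79a and Retnlg were at 0. The filter kept cells in which over 1000 but under 6000 genes were detected and mitochondrial molecules made up no more than 7%. The cells were thus chosen by the measured levels of these genes in this library, and those levels are given as a description only. The cells are called Arg1/Gpnmb macrophages here.

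The 4 libraries hold CD45+ cells sorted from adult C57BL/6J mice, 8 to 10 weeks of age by the methods of the study, and the labels name no other genotype. The source label of both brain libraries reads CD45-+ and their titles give CD45-positive cells, and they were taken as CD45+. One library each was made from the brain and the dura mater of control mice (CT, taken as the sham group on day 3) and of mice with PTI (INJ, day 3), in which a photoactivated dye and a light source clot the vessels under the skull. How many mice were pooled into a library is not given in the sources used here. With 1 library per condition no difference between conditions or classes could be tested, and every value below describes these libraries.

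Macrophages that enter injured tissue arise from circulating monocytes, which in mice are recognized by Ly6C (the product of Ly6c2) and by CCR2, the receptor that guides them out of the blood. In damaged tissue they take up dead cells, blood and myelin, and handle the lipid, iron and protein so acquired in lysosomes. Arg1 encodes arginase, which converts arginine to ornithine, Gpnmb a glycoprotein of lysosomal membranes, Fabp5 a carrier of fatty acids and Spp1 the secreted matrix protein osteopontin. Microglia are a separate, self-renewing lineage of the brain, and border macrophages live in the meninges and around vessels.

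Kept cells had a median of 8436 to 14641 unique molecular identifiers (UMIs, each tagging 1 captured RNA molecule) in the 4 libraries, and the libraries held 49003977 to 115154317 UMIs in all. The injured brain library was the deepest. It shared 7, 11 and 3 cell barcodes with the control brain, control dura and injured dura libraries, and 1 chosen cell carried a barcode that also occurs in the control dura library. For levels, the UMIs of all cells in a class were added and divided by the total of that class, per 1000000 UMIs (CPM), with exact Poisson 95% intervals. These intervals, and those of ratios and shares, cover counting error only and not the spread between mice.

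The same rule found 0 of 3748 kept cells in the control brain, which allows a share of up to 0.0800% by a limit of 3 cells, 0 of 3569 in the control dura, which allows up to 0.0841%, and 1 of 2668 in the injured dura (0.0375%). Over all kept cells of a library, Gpnmb stood at 9.89 CPM in the control brain, 0.884 CPM in the control dura, 671 CPM in the injured brain and 1.10 CPM in the injured dura. Arg1 was at 4.29, 7.03, 911 and 17.1 CPM in the same order of libraries. Spp1 was at 40.6, 26.2, 3484 and 72.9 CPM, and Fabp5 at 51.7, 63.9, 1588 and 72.3 CPM. All 4 genes were highest in the injured brain, far above the control brain and both dura libraries.

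Within the chosen cells the 4 genes differed in level and spread. Gpnmb (chr6:49036546-49070929, plus strand of GRCm38) was summed to 2124 CPM (95% interval 2095 to 2152) and its value per cell had a median of 2.85 and quartiles of 2.19 and 3.33. Arg1 (chr10:24915221-24927484, minus strand) reached 2459 CPM (95% interval 2428 to 2489.8) with the same median of 2.85 and wider quartiles of 1.67 and 3.67. Fabp5 (chr3:10012548-10016607, plus strand) and Spp1 (chr5:104435118-104441050, plus strand) had medians of 3.41 and 4.08. In 244 cells all 4 genes were at 1.5 or more, and 190 cells had 3. Among the latter, Arg1 was the gene below the threshold in 95 cells, Gpnmb in 55, Fabp5 in 24 and Spp1 in 16. The rule requires at least 3 of the 4 genes, so it sets part of this pattern. The 3rd highest rule gene of the cells nearest to the threshold was 1.502, 1.504 and 1.511 just inside it and 1.499, 1.498 and 1.498 just outside, and 23 and 25 cells lay within 0.25 of it on the inner and outer side.

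**Figure D1:**
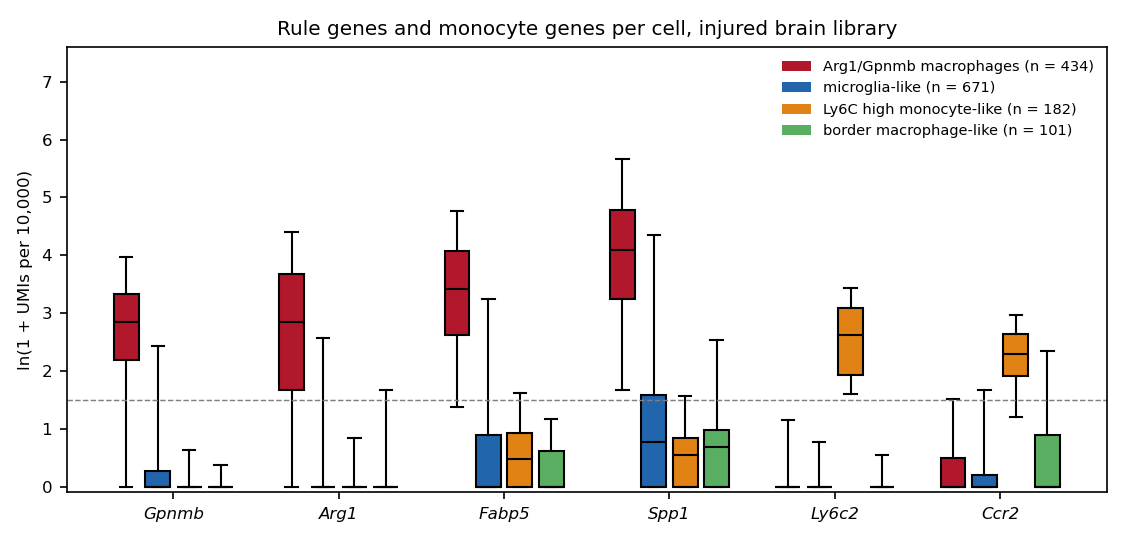
Level per cell, as ln(1 + UMIs per 10,000), of the 4 rule genes and of Ly6c2 and Ccr2 in Arg1/Gpnmb macrophages (n = 434), microglia-like (n = 671), Ly6C high monocyte-like (n = 182) and border macrophage-like cells (n = 101) of the injured brain. Boxes give the quartiles, lines in them the median, whiskers the 5th to 95th percentile and the dashed line the threshold of 1.5, and the monocyte-like class stands highest on Ly6c2 and Ccr2, which gated it.

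Free RNA in the droplets can set a floor for such values. In T-like and B-like cells of this library, Gpnmb was seen in 10.5% of cells, Arg1 in 8.27%, Fabp5 in 27.8% and Spp1 in 49.6%. These cells had a median of 5549.5 UMIs. Whether the UMIs of the 4 genes there were free RNA or the cells' own was not tested. In the chosen cells, at a median of 22336.5 UMIs, the shares were 94.0%, 91.5%, 97.0% and 99.8%.

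The 3 macrophage and monocyte classes of the same library served as the comparison, each set by gates on other genes. Microglia-like cells (671, median 11931 UMIs) had at least 4 of the 6 homeostatic genes above 0. Ly6C high monocyte-like cells (182, median 15225 UMIs) had Ly6c2 and Lyz2 at 1.5 or more, Ccr2 above 0 and at most 1 rule gene at the threshold. Border macrophage-like cells (101, median 8506 UMIs) had at least 3 of Pf4, Cbr2, Cd163, Lyve1, Folr2 and Mrc1 at 1 or more. The last 2 classes also had at most 2 homeostatic genes above 0, and all 3 had Cd3e, Cd79a and Retnlg at 0. Only the monocyte-like class was limited in rule genes, and 65 of the 671 microglia-like cells (9.69%) had at least 3 of them at the threshold, so this class contains cells that share the rule genes with the chosen ones. The Arg1/Gpnmb macrophages were the deepest class per cell, and depth therefore differs wherever classes are set side by side.

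The label of macrophage was checked on marker lists. The 12 pan-macrophage genes, among them Adgre1 (F4/80), Cd68, Csf1r and the C1q genes, summed to 29551 CPM in the chosen cells, 30859 in microglia-like, 27944 in monocyte-like and 29005 in border macrophage-like cells. This sum does not set them apart from monocytes. By gene, 7 of 12 were at least 2-fold higher and 0 lower than in monocyte-like cells. Against microglia-like cells 1 was higher and 3 lower, and against border macrophage-like cells 2 were higher and 2 lower. Csf1r was the lowest against these 2 classes, at log2 ratios of -2.45 and -2.19. Lists of other lineages were low in them. The 5 T cell genes summed to 1.59 CPM, the 5 B cell genes to 8.45, the 5 NK cell genes to 5.37, the 5 listed erythroid genes to 0.199 and the 6 neutrophil genes to 293 CPM, against 150798 CPM in neutrophil-like cells. The neutrophil-like cells were gated on these same 6 genes. The rule itself set Cd3e, Cd79a and Retnlg to 0 and so lowered these sums.

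Genes of microglial identity that the rule did not use were also low. Sparc, a secreted protein of resting microglia, stood at 6.66 CPM against 1487 in microglia-like cells, and Sall1, a transcription factor that keeps microglial identity, at 0.696 against 78.3 CPM. Olfml3 and Tmem119 were exceptions, seen in 81.1% and 45.9% of the chosen cells although the rule allowed only 2 homeostatic genes. Olfml3 reached 140.1 CPM there, 11.8 in monocyte-like, 12.4 in border macrophage-like and 928 in microglia-like cells. After every cell was thinned to 2000 UMIs, Olfml3 was still in 21.7% of chosen cells against 2.75% of monocyte-like, 6.45% of T-like and 7.41% of B-like cells. The Ly6C high monocyte list of 12 genes summed to 1688 CPM, against 1039 in microglia-like and 2181 in border macrophage-like cells. Monocyte-like cells, gated on Ly6c2 and Ccr2 of this list, stood at 12486 CPM. Whether the cells had entered from the blood cannot be read from 1 library without lineage tracing.

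Of 5452 genes with at least 200 UMIs in the chosen cells and each class together, 30 (0.55%) were at least 4-fold higher in Arg1/Gpnmb macrophages than in every one of the 3 classes. With each class limited to cells with at most 1 rule gene at the threshold, a setting chosen after seeing the data, 43 were. Gpnmb, Arg1 and Fabp5 are among them because the rule chose on them, and Spp1 is not, at a log2 ratio of 1.80 over microglia-like cells. Besides these, coagulation factor VII (F7), cathepsin K (Ctsk), the lipid phosphatase Plpp3, cysteine dioxygenase (Cdo1) and the metalloproteinase Mmp27 led the list. All cells of this library were used to choose the class, so the ratios describe it and test nothing.

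F7, the protease that starts the extrinsic pathway of clotting together with tissue factor, stood at 106 CPM (95% interval 99.6 to 112) and was seen in 56.7% of the cells. The other classes held 10.4 CPM (microglia-like), 5.89 (monocyte-like) and 0.886 (border macrophage-like). Its log2 ratio over microglia-like cells was 3.35 (95% interval 3.07 to 3.63). Of the F7 UMIs of microglia-like cells 92.4% lay in the 65 cells with at least 3 rule genes, and the 565 with at most 1 stood at 0.861 CPM. Plpp3, which degrades lysophosphatidic acid outside the cell, was at 37.3 CPM against 3.08 and 2.66 CPM in microglia-like and border macrophage-like cells and 0 UMIs in monocyte-like cells, where a floor of 3 UMIs over the class makes it at least 5.32 higher on the log2 scale. Ctsk, a lysosomal collagenase best known from osteoclasts, was at 26.8 CPM against 2.73, 0.620 and 0.886 CPM in the same order of classes. These genes were close to 0 in every comparison class and were seen in 25.3% (Ctsk) and 33.4% (Plpp3) of the chosen cells.

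Other genes of the 30 act in metabolism. Fabp4, a fatty acid carrier like Fabp5, was at 61.02 CPM against at most 15.1 CPM in the classes. Nr1h3, the sterol-sensing nuclear receptor LXR alpha, was at 37.6 against at most 9.31 CPM. Hilpda, a hypoxia-inducible inhibitor of lipid droplet breakdown, was at 618 against at most 146 CPM, the level of microglia-like cells. The 65 microglia-like cells with at least 3 rule genes held 52.2% of the Hilpda UMIs of that class. The 565 with at most 1 stood at 72.7 CPM. Gclm, a subunit of the enzyme that makes glutathione, and Slc48a1, the transporter that carries heme out of lysosomes, were at 207 and 264 CPM against at most 50.9 and 65.8 CPM. Arg2, the mitochondrial arginase, was higher beside Arg1, at 79.7 against at most 19.2 CPM. Nos2, the inducible nitric oxide synthase that competes for arginine, held 21 UMIs in all 434 cells (2.09 CPM).

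Surface and signaling genes completed the list. Pdpn (podoplanin, a ligand of the platelet receptor CLEC-2) was at 51.1 CPM against at most 7.31 CPM, the surface glycoprotein gene Cd24a at 187 against at most 43.7, and Htr2b, a serotonin receptor, at 44.2 against 8.37 in microglia-like cells and 0 UMIs in both other classes. Slc6a8, the creatine transporter, stood at 92.1 against at most 15.8 CPM, and Igf2r, the receptor that sorts enzymes to lysosomes, at 31.3 against at most 6.26. Cxcl3, a chemokine that draws neutrophils, was at 87.4 against at most 18.5 CPM but was seen in only 21.2% of the cells. Mmp27, Cgnl1, Fbxo32, Gpc1, Emp1, Ahnak2, Tst, Ptger2, Pde4d, Cd200r4 and Chchd10 made up the rest, with smallest log2 ratios from 2.02 to 2.94.

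**Figure D2:**
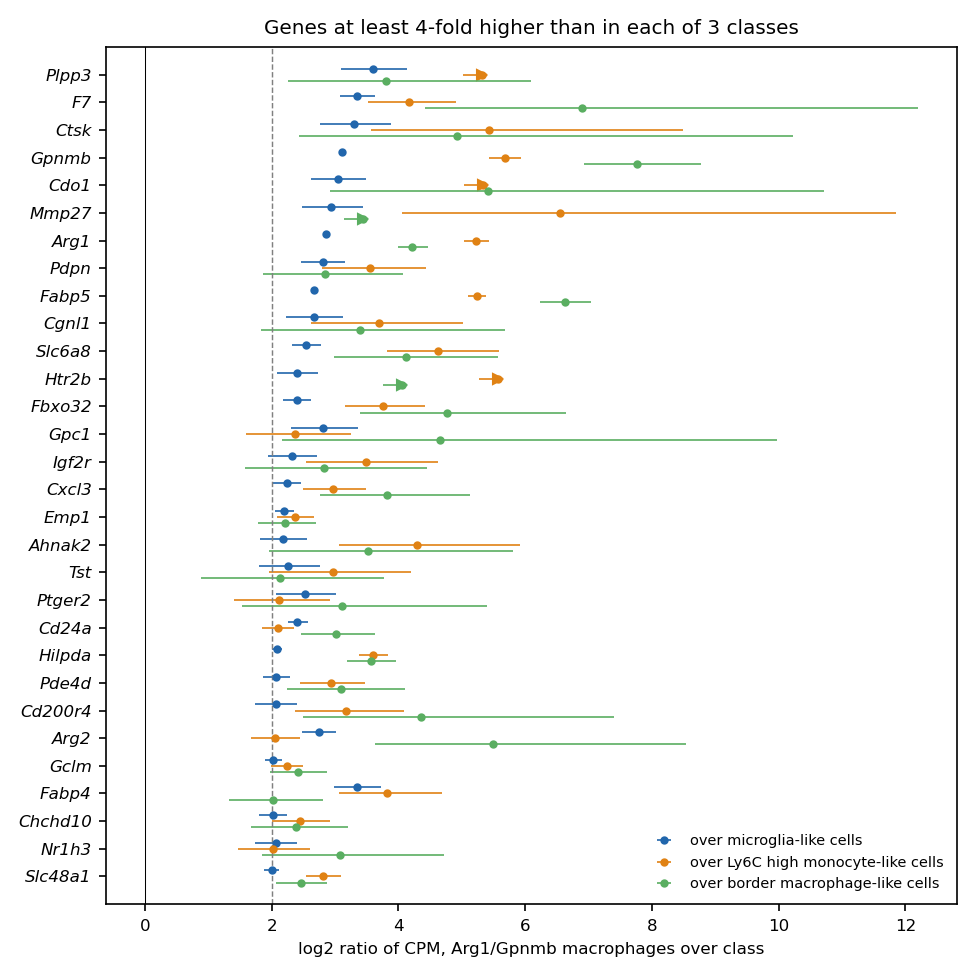
Log2 ratio of CPM in Arg1/Gpnmb macrophages over each of 3 classes (colors) for the 30 genes at least 4-fold higher than in all of them, with exact 95% intervals. Arrowheads mark classes with 0 UMIs, where the ratio to a floor of 3 UMIs is a lower bound, and the dashed line marks a 4-fold ratio, which Gpnmb exceeded against every class.

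Promoter sequence was read for the genes of this list because they were high in the same cells. RefSeq windows on GRCm38.p6, from 250 bases before to 50 bases after a gene start, were found for 19 of the 30 genes, and Arg1 and Fabp5 were not among them. The following 3 words were searched on both strands: CACGTG, the E-box read by lysosomal and bHLH factors, TGANTCA, the AP-1 word with any base at N, and ACGTG, the core of the hypoxia response element, which every CACGTG also contains. They occurred in at least 1 window of 3, 4 and 8 of the 19 genes. Of all 27025 genes with a window, 8.09%, 8.97% and 21.8% hold these words in at least 1. The windows of Gpnmb, Hilpda and Pdpn are printed 5′ to 3′ along the gene, with the words found in capitals.
Gpnmb, chr6:49036268-49036567, plus strand: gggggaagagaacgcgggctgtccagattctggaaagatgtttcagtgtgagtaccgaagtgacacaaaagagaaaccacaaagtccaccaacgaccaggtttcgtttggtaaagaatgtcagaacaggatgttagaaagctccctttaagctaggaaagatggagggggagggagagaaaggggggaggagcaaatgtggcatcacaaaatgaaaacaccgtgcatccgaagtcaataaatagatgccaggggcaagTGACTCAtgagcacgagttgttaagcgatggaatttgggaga
Hilpda, chr6:29272376-29272675, plus strand: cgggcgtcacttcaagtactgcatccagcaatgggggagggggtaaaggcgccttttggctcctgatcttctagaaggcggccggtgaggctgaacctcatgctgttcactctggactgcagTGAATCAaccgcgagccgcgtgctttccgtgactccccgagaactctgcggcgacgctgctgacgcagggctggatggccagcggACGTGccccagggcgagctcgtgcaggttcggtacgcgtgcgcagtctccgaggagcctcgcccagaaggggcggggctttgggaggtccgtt
Pdpn, chr4:143299515-143299814, minus strand: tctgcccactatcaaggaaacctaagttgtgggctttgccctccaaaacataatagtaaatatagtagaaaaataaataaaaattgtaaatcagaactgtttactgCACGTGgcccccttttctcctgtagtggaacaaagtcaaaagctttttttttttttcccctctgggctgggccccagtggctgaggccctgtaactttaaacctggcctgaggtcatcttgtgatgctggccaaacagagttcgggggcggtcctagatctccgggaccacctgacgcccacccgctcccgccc
In the Gpnmb window TGANTCA begins at base 259, just after the RefSeq start, the Hilpda window holds TGANTCA at base 123 and ACGTG at base 208, and the Pdpn window CACGTG at base 107. A match of letters is a description and says nothing about binding.

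At least 4-fold lower than in each class were 8 of the 5452 genes (0.147%). A gene low in the chosen cells had to reach 200 UMIs together with each class. The monocyte-like and border macrophage-like classes held far fewer UMIs than the chosen cells, so the 8 cannot be set against the 30 higher genes. With 50 UMIs sufficient, 37 genes were higher and 19 lower. S100a8 and S100a9, neutrophil and monocyte alarmins, were at 101 and 100.2 CPM in the chosen cells, against 607 and 633 in monocyte-like cells. Camp, a neutrophil granule peptide, and the immunoglobulin gene Ighm were lower too, at 13.6 and 11.5 CPM. The chaperones Hspa1a and Hspa1b, induced by heat and by tissue dissociation, were at 136 and 26.04 CPM against 1082 and 316 in microglia-like and 3276 and 911 in border macrophage-like cells. Stmn1, a tubulin-binding protein of dividing cells, and Hpgd, which inactivates prostaglandins, were the remaining ones. Neutrophil RNA was also found in other lineages, since S100a8 stood at 607 CPM in T-like and B-like cells, where it was seen in 47.7% of cells, against 77.0% of the deeper Arg1/Gpnmb macrophages. The demand for 0 Retnlg removed cells with more S100a8. With the whole CPM profile of T-like and B-like cells subtracted, 113 genes were higher and 200 lower than in every class. That profile includes these cells' own RNA beside free RNA, so these counts do not show the effect of free RNA alone.

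For the gene lists, the chosen genes were left out and a gene was counted as higher or lower at a 2-fold ratio. Among all genes with at least 200 UMIs, 3.77% were 2-fold higher and 9.81% lower than in microglia-like cells, 9.24% and 9.14% than in monocyte-like cells, and 7.76% and 9.67% than in border macrophage-like cells. The median log2 ratios of all genes were -0.11, -0.14 and -0.06.

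Genes of lipid handling stood higher than in monocytes. Of 16 genes with enough UMIs, 11 were higher and 1 lower than in monocyte-like cells (median log2 ratio 2.20), 8 of 17 were higher than in microglia-like cells (median 0.81) and 8 of 16 higher than in border macrophage-like cells (median 1.12). Apoe, the main lipoprotein of brain macrophages, reached 55688 CPM, against 24251, 4661 and 40426 CPM in microglia-like, monocyte-like and border macrophage-like cells. Of the Apoe UMIs of microglia-like cells 41.3% lay in the 65 cells with at least 3 rule genes. The 565 with at most 1 stood at 15324 CPM. Plin2, the coat protein of lipid droplets, was at 2349 CPM against 768, 449 and 402. The scavenger receptor Cd36 was at 154 CPM against 25.2 in microglia-like and 2.17 in monocyte-like cells but 139 in border macrophage-like cells. An exception was Lpl, which releases fatty acids from lipoproteins and was lower than in microglia-like cells at 29.5 against 154 CPM. Trem2, a lipid-sensing receptor, was close to microglia-like cells at 1528 against 1756 CPM and far above monocyte-like cells at 199.

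By the list medians, lysosomal genes separated the cells from monocyte-like more than from microglia-like cells, with each class taken whole. Of 22 genes, 20 were higher and 0 lower than in monocyte-like cells (median log2 ratio 1.58), 12 of 22 were higher than in border macrophage-like cells (median 1.11), and 5 of 23 were higher and 1 lower than in microglia-like cells (median 0.24). The cathepsin Ctsd was at 13015 CPM beside 11518 in microglia-like and 867 in monocyte-like cells. Ctsb was at 11963 CPM beside 5455 and 1174, and Psap, the precursor of the saposins that help to digest sphingolipids, at 7905 beside 2926 and 2682. Of the Psap UMIs of microglia-like cells 37.8% lay in the 65 cells with at least 3 rule genes. The 565 with at most 1 stood at 2115 CPM, below monocyte-like cells.

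Heme and iron genes went in both directions. Of this list, 6 of 8 genes were higher and 1 lower than in monocyte-like cells (median 1.97), 5 of 10 higher and 2 lower than in microglia-like (median 1.001) and 5 of 10 higher and 3 lower than in border macrophage-like cells (median 0.48). Hmox1, which breaks down heme, was at 1563 CPM against 624, 248 and 596 in microglia-like, monocyte-like and border macrophage-like cells, and the ferritin chain Fth1 at 28478 against 13194, 10054 and 8679. The haemoglobin receptor Cd163 and the iron exporter Slc40a1 went the other way, at 4.57 and 9.84 CPM against 423 and 134 in border macrophage-like cells. Of 11 targets of the antioxidant factor Nrf2, 6 were higher than in microglia-like cells (median 1.34), 4 higher and 1 lower than in monocyte-like cells (median 0.61) and 9 higher than in border macrophage-like cells (median 1.41).

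How many glycolysis and hypoxia genes were higher depended on the class. Of 18 glycolysis genes, 5 were higher and 0 lower than in monocyte-like cells (median 0.76), 3 higher and 1 lower than in microglia-like cells (median 0.65), and 12 higher than in border macrophage-like cells (median 1.66). The glycolytic enzyme gene Tpi1 stood at 858 CPM against 428, 260 and 199 CPM in the same order. Of the hypoxia list, 6 of 11 genes were higher than in monocyte-like cells (median 1.07), 4 of 12 than in microglia-like cells (median 0.74) and 6 of 11 than in border macrophage-like cells (median 1.46).

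Among secreted factors, the vascular growth factor Vegfa was at 252 CPM (95% interval 243 to 262) and was seen in 88.02% of the chosen cells. Microglia-like, monocyte-like and border macrophage-like cells held 71.03, 111 and 53.2 CPM, and T-like and B-like cells together 20.5 CPM. Of the Vegfa UMIs of microglia-like cells 49.8% lay in the 65 cells with at least 3 rule genes. The 565 with at most 1 stood at 35.3 CPM. The log2 ratio of the chosen cells over monocyte-like cells was 1.19 (95% interval 1.03 to 1.35). Thbs1, a matrix protein that restrains vessel growth, was at 1616 CPM against 410.3, 1294 and 219. Igf1 was at 57.2 CPM beside 55.6 in microglia-like, 0.931 in monocyte-like and 155 in border macrophage-like cells, and Pdgfb, a growth factor for pericytes, was lower than in microglia-like cells at 7.16 against 127 CPM. Of the growth factor list, 5 of 8 genes were higher and 0 lower than in monocyte-like cells (median 1.96), while 3 of 11 were higher and 2 lower than in microglia-like cells (median 0.08), and 5 of 8 higher and 1 lower than in border macrophage-like cells (median 1.22).

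Matrix and clotting genes differed by reference class. In the matrix and protease list 9 of 17 genes were higher and 3 lower than in microglia-like cells (median 1.03), 5 of 16 higher and 2 lower than in monocyte-like cells (median 0.60), and 11 of 14 higher and 1 lower than in border macrophage-like cells (median 1.54). Mmp8, a collagenase, was at 110.1 CPM, near the 129 CPM of monocyte-like cells and above the 13.5 CPM of microglia-like cells. Of the coagulation list, 4 of 8 genes were higher and 3 lower than in microglia-like cells (median 1.14), 2 of 6 higher and 2 lower than in monocyte-like cells (median -0.55), and 4 of 6 higher and 1 lower than in border macrophage-like cells (median 2.61). F7 was higher than in all classes, whereas F10, the factor that F7 activates, was at 109 CPM against 290.4 in monocyte-like and 22.8 in microglia-like cells, and F13a1, which crosslinks fibrin, at 353 against 757 and 130.2.

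MHC class II genes, which present antigen, were lower than in 2 of the classes, and chemokine genes differed by class. All 6 tested MHC class II genes were lower than in microglia-like cells (median -1.17) and than in border macrophage-like cells (median -2.48), and 2 of 6 were lower than in monocyte-like cells (median -0.86). H2-Aa was at 433 CPM against 957, 749 and 2481 in microglia-like, monocyte-like and border macrophage-like cells. Il1b was at 1234 CPM beside 1384, 2259 and 1654, and Tnf at 62.2 beside 305, 37.8 and 286. Of the 15 tested chemokine genes, 2 were higher and 4 lower than in microglia-like cells (median 0.08), and 9 were higher and 3 lower than in monocyte-like cells (median 1.42). Against border macrophage-like cells, 2 of 16 were higher and 9 lower (median -1.74). Of genes often used for alternative activation, Mrc1 (CD206) was at 32.2 CPM against 1663 in border macrophage-like cells, Retnla held 7 UMIs in all chosen cells, and Chil3 was at 204 CPM against 2497 in monocyte-like cells.

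Cell cycle genes were low. Of 11 with enough UMIs, 9 were lower and 0 higher than in monocyte-like cells (median -4.18), and 7 of 9 were lower than in microglia-like cells (median -2.10). Interferon-stimulated genes differed little, with 0 higher and 1 lower of 12 against microglia-like cells (median 0.20) and 0 higher and 2 lower against monocyte-like cells (median -0.55). Of 22 transcription factors, 7 were higher and 1 lower than in monocyte-like cells (median 0.09), and 1 was higher and 3 lower than in microglia-like cells (median -0.12).

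Set against all 4167 other kept cells of the library, 8 of 10213 genes (0.0783%) were at least 4-fold higher in the Arg1/Gpnmb macrophages and 709 (6.94%) at least 4-fold lower. The 8 genes were Ctsk, Plpp3, Slc36a2, Gpnmb, Cdo1, F7, Spsb4 and Pir, with log2 ratios from 2.01 to 2.47. Fabp5 fell just below this line at 1.99. The other cells include 540 that also had at least 3 rule genes at the threshold but failed another part of the rule. The genes with the lowest ratios belong to lineages the rule removed, such as Retnlg, Camp, Ltf and Ngp of neutrophils, Cd3d of T cells and Igkc of B cells.

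The comparison classes also exist in the control brain, where no Arg1/Gpnmb macrophage was found. Gpnmb was at 16.5 CPM in the 374 microglia-like cells of that library, 1.77 CPM in its 137 monocyte-like cells and 2.21 CPM in its 46 border macrophage-like cells. Arg1 had 0, 1 and 4 UMIs and F7 had 0 UMIs in each of these classes. In the injured brain the same classes held 245, 41.6 and 9.75 CPM of Gpnmb. Of the Gpnmb UMIs of these microglia-like cells 87.4% lay in the 65 cells with at least 3 rule genes, and the 565 with at most 1 stood at 20.8 CPM. T-like and B-like cells of the injured brain stood at 57.5 CPM.

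To place the cells beside those with fewer rule genes, the 1980 kept cells that met every other part of the rule were divided by how many of the 4 genes reached 1.5. There were 1131 cells with 0, 271 with 1, 144 with 2, 190 with 3 and 244 with 4, the last 2 groups being the Arg1/Gpnmb macrophages. Median UMIs per cell rose along this order from 11605 to 23982, and the cells with 0 rule genes can be of any lineage that the rule does not exclude. Ly6c2 was at 378, 286, 138, 75.7 and 34.96 CPM from 0 to 4 rule genes and Ccr2 at 583, 454, 329.5, 84.9 and 44.9 CPM. The MHC class II gene H2-Aa fell from 5479 CPM with 0 rule genes to 1759 with 2 and 362 with 3. With 4 rule genes it was higher again, at 481 CPM. Ly6c2, Ccr2 and H2-Aa were therefore lower in each group of Arg1/Gpnmb macrophages than in the groups with 0 to 2 rule genes.

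Other genes did not follow the same course. Il1b was at 3804, 4745, 4762, 1648 and 955 CPM, with its highest level in cells with 1 or 2 rule genes, and Vegfa at 87.5, 217, 314, 229 and 268 CPM, with its highest level at 2. Psap rose along the whole order, at 1895, 2542, 3939.7, 7249.7 and 8347 CPM, as did F7 at 1.39, 15.3, 34.2, 79.9 and 123 CPM and Trem2 at 194, 529, 972, 1428 and 1596 CPM. Hmox1 was highest at 3 rule genes, at 179.8, 413, 670.3, 1801 and 1402 CPM. As a group, cells with 2 rule genes, just outside the rule, thus had intermediate Ccr2 and high Il1b and Vegfa. Whether single cells held these together cannot be read from summed UMIs.

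**Figure D3:**
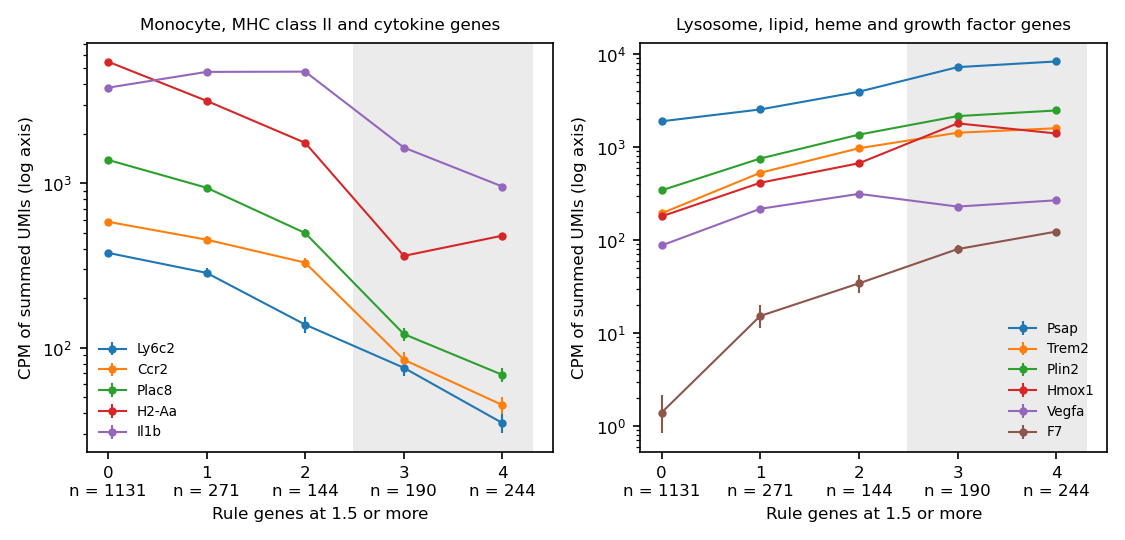
CPM of summed UMIs on a log axis against the number of rule genes at 1.5 or more (0 to 4) in 1980 cells that met all other parts of the rule, with exact Poisson 95% intervals, for monocyte, MHC class II and cytokine genes (left) and lysosome, lipid, heme and growth factor genes (right). The grey area marks the 434 Arg1/Gpnmb macrophages, where Ccr2 is at 84.9 and 44.9 CPM and Psap at 7249.7 and 8347 CPM.

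Inside the 434 cells, the question was whether Gpnmb-high cells stand opposite to monocyte-like ones. The 108 cells with the highest Gpnmb values (3.34 or more) were set against the 108 with the lowest (2.19 or less). Of 3120 genes that reached 200 UMIs over both groups, 39 (1.25%) were at least 2-fold higher and 107 (3.43%) at least 2-fold lower in the Gpnmb-high cells, with a median log2 ratio of -0.04. The Gpnmb-high group was also deeper, with a median of 26202 against 19161 UMIs per cell, and with each cell thinned to 5000 UMIs 14 genes were higher and 26 lower. A cell with Gpnmb under 1.5 was chosen only if Arg1, Fabp5 and Spp1 were all at the threshold, and the rule thus sets part of the make-up of the Gpnmb-low group.

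Most lysosomal, lipid and Nrf2 genes had ratios above 0 in the Gpnmb-high cells, but few passed 2-fold. Psap went from 4689 to 10459.6 CPM from the Gpnmb-low to the Gpnmb-high group, a log2 ratio of 1.16 (95% interval 1.13 to 1.19). Creg1, a lysosomal glycoprotein, went from 669.5 to 1915 CPM, Ctsd from 8616 to 17198 CPM, and Fabp4 from 30.1 to 134 CPM. Of the lysosome list 1 of 21 genes passed 2-fold and 19 were above 0, with a median of 0.50, and its lowest gene, Lgmn, was at -0.07. The lipid list had 4 of 13 genes higher, 0 lower and 11 above 0 (median 0.47), and the Nrf2 list 2 of 11 higher, 0 lower and 9 above 0 (median 0.76), among them Gclm from 97.9 to 344 CPM. Cdo1, which turns cysteine toward taurine, had the largest ratio among them, from 4.10 to 90.8 CPM, and Igf1 went from 26.9 to 105 CPM. Mgst1, a glutathione transferase of membranes, went from 131 to 441 CPM.

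Monocyte, MHC class II, chemokine and interferon genes were lower in the Gpnmb-high cells. Ccr2 went from 133 to 12.6 CPM from the Gpnmb-low to the Gpnmb-high group, a log2 ratio of -3.41 (95% interval -3.94 to -2.91), and Plac8, another gene of Ly6C high monocytes, from 217 to 29.6 CPM. Of the Ly6C high monocyte list, 6 of 10 genes were lower and 0 higher (median -1.12, and -0.40 with cells thinned to 5000 UMIs). All 6 tested MHC class II genes were lower (median -2.82), with H2-Aa going from 696 to 70.8 CPM. The chemokine list had 9 of 14 genes lower (median -2.00) and the interferon list 7 of 10 (median -1.31). Ccl5 went from 326 to 3.74 CPM and Cxcl10 from 237 to 12.2 CPM, while the cytokine Il1b went from 2407 to 384 CPM. Hypoxia genes had a median of -0.61 with 0 of 10 past 2-fold, and Vegfa went from 299 to 209 CPM.

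Ly6c2 did not share this order. It went from 41.9 to 78.2 CPM from the Gpnmb-low to the Gpnmb-high group, a log2 ratio of 0.90 (95% interval 0.55 to 1.27), against the direction of Ccr2. Over 4 groups of 108 or 109 cells in rising order of Gpnmb its level was 42.3, 55.96, 24.7 and 78.2 CPM and its share of cells with a UMI 22.0%, 26.6%, 18.5% and 28.7%. Ccr2 over the same groups was at 132, 77.6, 40.1 and 12.6 CPM, in 58.7%, 44.0%, 26.9% and 18.5% of cells. Chil3 behaved like Ly6c2 rather than Ccr2, at 193, 180.4, 222 and 215 CPM. The monocyte genes therefore split into those that were lower step by step with Gpnmb (Ccr2 and Plac8) and those without such an order (Ly6c2 and Chil3).

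The Ly6c2 signal came from few cells. Of its 517 UMIs in the chosen cells, 57.4% lay in 10 cells, with up to 72 in 1 cell, while the 10 highest cells held 24.1% of the 614 Ccr2 UMIs. Ly6c2 was seen in 23.96% of the cells and Ccr2 in 37.1%. After thinning to 2000 UMIs these shares were 4.15% and 12.2%, beside 3.13% and 10.7% in microglia-like and 1.23% and 1.23% in B-like cells. In monocyte-like cells, gated on both genes, Ly6c2 had a median of 2.62 per cell on the ln scale and in the chosen cells a median of 0 and a 95th percentile of 1.15. Only 18 of the 434 cells reached 1.5 on Ly6c2 and 24 on Ccr2.

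Divided by these genes, 52 cells had UMIs of both, 52 of Ly6c2 only, 109 of Ccr2 only and 221 of neither, with median depths from 20956.5 to 23335 UMIs. MHC class II and Il1b followed Ccr2. H2-Aa was at 689.5 CPM in cells with both, 1113 with Ccr2 only, 161 with Ly6c2 only and 112 with neither. Il1b was at 1669.5, 2044, 893 and 826 CPM in the same order. Gpnmb was lowest with Ccr2 only at 1419 CPM and highest with Ly6c2 only at 2688, while Arg1 stayed between 2139 and 2594 CPM in all of them. Arg1 was below 1.5 in 32.7% of the cells with both, 28.8% with Ly6c2 only, 11.9% with Ccr2 only and 22.6% with neither.

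Cells were also divided by Arg1. When the 108 cells with the highest Arg1 (3.69 or more) were set against the 108 with the lowest (1.66 or less), a division added after the data had been seen, 52 of 3020 genes (1.72%) were at least 2-fold higher and 29 (0.96%) lower. Of the 108 Arg1-low cells 95 were below 1.5 and were chosen only because Gpnmb, Fabp5 and Spp1 were all at the threshold, so the rule sets part of the make-up of this group too. Depth was alike, at medians of 21897 and 22548 UMIs. Of 16 glycolysis genes, 9 were higher and 0 lower in Arg1-high cells (median 1.03), as were 6 of 10 hypoxia genes (median 1.16) and 3 of 5 coagulation genes (median 1.03). Pgk1 went from 337 to 899.8 CPM, Egln3, an oxygen-sensing hydroxylase, from 13.2 to 90.2 CPM, and Bnip3, a hypoxia-induced mitophagy receptor, from 58.4 to 242 CPM. Among genes with at least 200 UMIs, the metal-binding protein Mt2 had the largest ratio after Arg1 itself, at 3.06 (95% interval 2.46 to 3.70). Fibronectin (Fn1) went from 234 to 919 CPM, Pf4 from 897 to 3022 CPM, Hmox1 from 939.5 to 2152 CPM and F13a1 from 222 to 502 CPM.

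Lower in Arg1-high cells were Ly6c2, from 104 to 19.99 CPM, and the interferon list (6 of 10 genes lower, median -1.07). Of the 517 Ly6c2 UMIs in all chosen cells, 57.4% lay in 10 cells, so few cells can set the Ly6c2 difference. Igf1 was lower too, from 88.8 to 31.4 CPM, as was Fabp4, from 112 to 38.8 CPM. Gdf15, a stress cytokine, went from 307 to 82.02 CPM. The phagocytic receptor Axl and its ligand Gas6 were lower as well, Axl from 71.6 to 16.7 CPM and Gas6 at a log2 ratio of -1.46. The lysosome list had a median of -0.19. Gpnmb went from 2835 to 1875 CPM, a difference that the rule favours. Ccr2 was alike in both groups, going from 47.2 to 46.9 CPM. Of 13 chemokine genes 6 were higher and 3 lower in Arg1-high cells (median 0.92, beside -2.00 along Gpnmb), and of 6 MHC class II genes 0 were higher and 1 lower (median -0.75, beside -2.82).

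**Figure D4:**
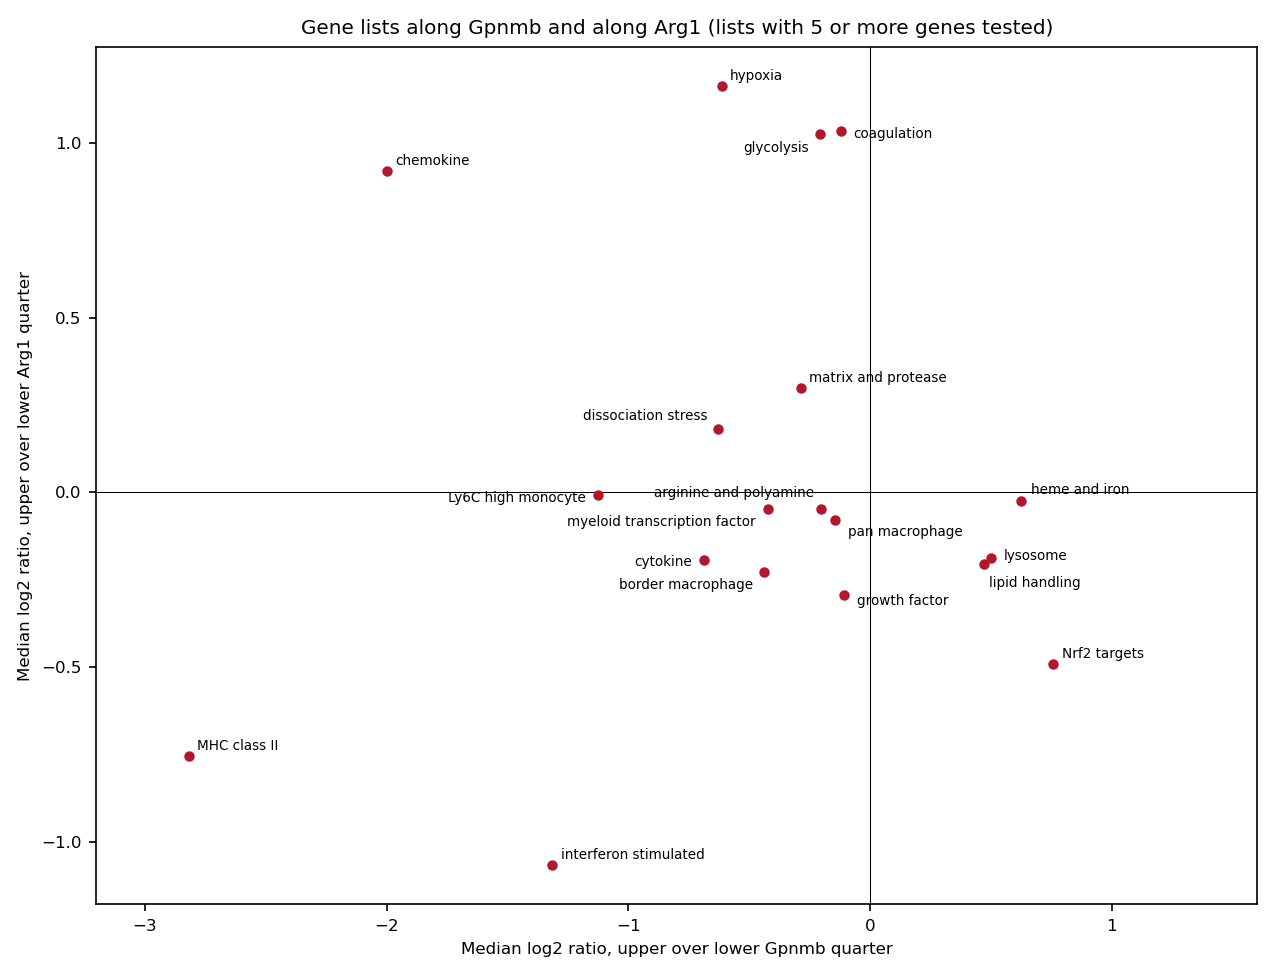
Median log2 ratio of each gene list with 5 or more genes tested, Gpnmb-high over Gpnmb-low cells (x axis) and Arg1-high over Arg1-low cells (y axis), 108 cells in each group. Hypoxia, glycolysis and coagulation lie high on the Arg1 axis at 1.16, 1.03 and 1.03, and MHC class II lies lowest on the Gpnmb axis at -2.82.

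Correlations of values per cell over the 434 cells, which share 1 library and differ in depth, are given as a description. Gpnmb ran most closely with Psap (Pearson's r = 0.69), Ctsd (0.54), Ctsb (0.52), Hexa (0.52) and Lamp1 (0.50), all lysosomal, and most opposite to the lysosomal peptidase gene Ctsc (-0.50), Ccr2 (-0.46), Dab2 (-0.45) and Fn1 (-0.43). Arg1 ran with Fn1 (0.51), Gapdh (0.48), Ldha (0.48), Mif (0.46), Tpi1 (0.46) and Pgk1 (0.45). Ly6c2 ran with Ms4a4c (0.44), Plac8 (0.38), Ly6e (0.38) and the interferon factor Irf7 (0.36), and its r was 0.17 with Ccr2, 0.03 with Gpnmb and -0.17 with Arg1. Because a cell low on 1 rule gene needed the other 3, no r between rule genes is given. The logarithm of the UMI total had an r of 0.32 with Gpnmb and -0.08 with Arg1, and every value above includes this difference in depth. After thinning to 5000 UMIs, over 432 cells, the r with Gpnmb was 0.66 for Psap, 0.50 for Ctsd, 0.46 for Ctsb, 0.26 for Hexa, 0.38 for Lamp1, -0.38 for Ctsc, -0.33 for Ccr2, -0.27 for Dab2 and -0.40 for Fn1. That with Arg1 was 0.44 for Fn1, 0.40 for Gapdh, 0.43 for Ldha, 0.42 for Mif, 0.37 for Tpi1 and 0.35 for Pgk1, and that with Ly6c2 0.39 for Ms4a4c, 0.33 for Plac8, 0.28 for Ly6e and 0.28 for Irf7.

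Principal components of the 2000 most variable genes took 3.45%, 2.40% and 2.14% of the variance. Component 1 ran from interferon and monocyte genes (Ifitm3, Plac8, Isg15, Ms4a4c, Irf7) to lysosomal genes (Ctsd, Creg1, Ctsb, Cd63, Psap), with an r of 0.48 for Gpnmb, -0.48 for Ccr2, -0.26 for Ly6c2 and 0.31 for the UMI total. Component 2 set glycolysis and hypoxia genes (Pkm, Aldoa, Eno1, Bnip3, Pgk1, Slc2a1) against Fcer1g, Ly86 and Apoe. Its r was -0.30 for Arg1, 0.40 for the mitochondrial share of a cell and 0.26 for the UMI total. Component 3 ran from early-response genes (Nfkbiz, Kdm6b, Zfp36, Cd83) to Lgals3 and interferon-induced genes (Ifit3, Ifit2, Rsad2). A single cell of 2596 UMIs stood at -61.9 on component 2, far from the next at -23.2, and without it components 1 to 3 kept an absolute r of 0.9998, 0.96 and 0.92 with the original ones.

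**Figure D5:**
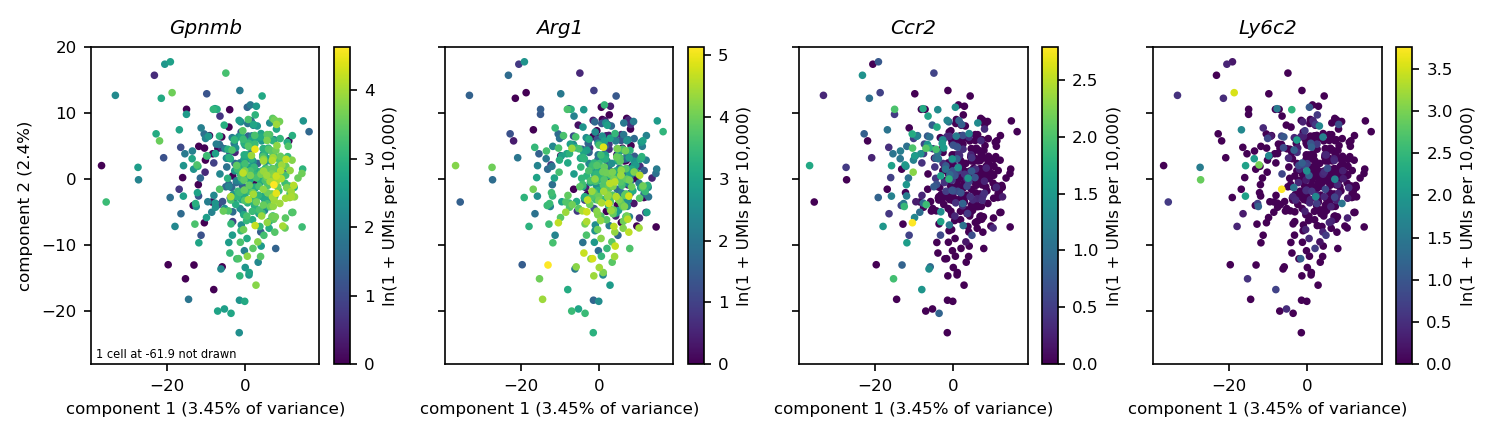
Components 1 and 2 of the 434 Arg1/Gpnmb macrophages, 1 point per cell, colored by the ln value of Gpnmb, Arg1, Ccr2 and Ly6c2, with 1 cell at -61.9 on component 2 outside the plot. Gpnmb rises and Ccr2 falls along component 1 (r = 0.48 and -0.48).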

How the data were processed

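CD45+ cells of 4 libraries were processed by the authors with Cell Ranger 3.1.0 on mm10 and Seurat 3.1.0, as the processing notes of the submitters list them. The authors deposited natural log values per gene and cell, ln(1 + UMIs / total of the cell × 10000). Whole UMIs were recovered from them (100% of the values above 0 within 1e-06) and summed over the cells of each class as CPM. Analyses used Python 3.11.15, numpy 2.4.6, scipy 1.17.1, pandas 2.3.3 and scanpy 1.11.5. Libraries held 49003977 to 115154317 UMIs. With 1 library per condition no test was run. Intervals are exact Poisson for levels, exact Clopper-Pearson for shares and exact conditional binomial for ratios, and a class at 0 UMIs was set to 3 UMIs. Genes with at least 200 UMIs were compared at a 4-fold ratio between classes and a 2-fold ratio for lists and for the Gpnmb and Arg1 groups of 108 cells. The text names the genes past 4-fold against all 3 classes, the extremes of those groups and members of 35 fixed lists. The computation was tested on simulated data. Doublets were kept in the reported values. The cells and lists were chosen with earlier results of these data known, and the gates of T-like and B-like cells were tightened after a first look. Alternatives covered the rule, the filter on cells, depth, doublets and subtraction of the T-like and B-like profile. Some results are not reported here.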

Additional observations from a re-analysis of the deposited data

How the results depend on the processing

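Of 138 values recomputed for 11 results, 99 stayed within 1.5 times or the counting interval of the reported one, 39 moved and 0 changed sign. Only the list medians could change sign, since the other results are counts of genes or cells. With all 4 rule genes required, 244 cells remained, with 19 genes higher than in every class, and 19 higher and 67 lower in Gpnmb-high cells. With 0 homeostatic genes allowed, 32 cells were left, with 6 genes higher than in every class, 20 higher and 354 lower than in the rest of the library, 10 higher and 20 lower in Gpnmb-high cells, a lysosome median of 0.72 and a glycolysis median of 1.01. There the Ly6C high monocyte list had no gene with 200 UMIs and gave no value. Without the filter on cells, 3 genes were lower than in every class. With the mean of CPM over cells, 5 were lower, the glycolysis median was 0.92 and 30 genes were higher than in the rest. With cells thinned to 5000 UMIs, 2 were lower than in every class, the glycolysis median was 0.92, 14 genes were higher and 26 lower in Gpnmb-high cells, the Ly6C high monocyte median was -0.40, and 14 were higher and 380 lower than in the rest. With genes of 50 UMIs admitted, which tests more genes, 19 were lower than in every class, 107 higher and 288 lower in Gpnmb-high cells, and 17 higher and 1211 lower than in the rest. With the whole CPM profile of T-like and B-like cells subtracted, 113 were higher and 200 lower than in every class. The glycolysis and lipid medians were then 1.31 and 3.31, and the subtracted profile includes these cells' own RNA beside free RNA. The following were chosen after seeing the data. Without the Retnlg criterion, 18 genes were higher than in the rest. With 3 homeostatic genes allowed, 14 were, and the lysosome median was 0.36. With 2 rule genes sufficient, 3 were, 98 were higher and 194 lower in Gpnmb-high cells, and the lysosome median was 0.75. With only the cells that had Arg1, Fabp5 and Spp1 at the threshold, 36 genes were higher and 95 lower in Gpnmb-high cells. Where no construction of the setting shows it, the cause was not tested. Scrublet called 2 of 5925 barcodes by its own threshold, so the 281 highest scores were removed instead, 12 of them chosen cells, and no value moved.

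No paired analysis was possible because each condition is 1 library. Without replicates, the spread between mice is unknown, and depth differed between classes, which limits shares of low genes such as Ly6c2.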

Other observations

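Cells that carried 3 of the 4 rule genes differed by which gene was below the threshold. The 55 cells low on Gpnmb had the highest Ccr2 (188 CPM, against 44.9 in the 244 cells with all 4), and Il1b at 3231 against 955 CPM, Ccl5 at 603 against 18.6 and Fn1 at 1250.3 against 573. The 95 cells low on Arg1 held more Ly6c2 (113 against 34.96 CPM) and Fabp4 (121 against 50.3). They held less Pf4 (834 against 2057) and Vegfa (174 against 268). Over all chosen cells, 57.4% of the Ly6c2 UMIs lay in 10 cells. The 24 cells low on Fabp5 and the 16 low on Spp1 had the highest Hmox1, at 4678 and 5293 CPM against 1402, and those low on Fabp5 the highest Mmp12, a macrophage elastase, at 358 against 7.82 CPM. In these small groups the pattern is a description of 1 library.

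The demand for 0 Retnlg, a neutrophil gene, removed cells that met the rest of the rule. Of the 974 kept cells with at least 3 rule genes at the threshold, 308 had a Retnlg UMI and 229 of these exactly 1. For the 188 of them with at most 2 homeostatic genes, Cd3e and Cd79a were not required to be 0. Dropping only the Retnlg criterion gave 614 chosen cells. Among genes the rule did not use, the 188 had Psap at 7708 CPM beside 7905 in the chosen cells. F7 was at 113 beside 106, Hmox1 at 1895 beside 1563, Mmp12 at 59.5 beside 31.3, and S100a8 at 1685 against 101 CPM. A further 140 of the 974 had 3 homeostatic genes above 0, with Gpnmb at 1625 CPM, and 65 had 4 to 6, with Gpnmb at 1225 CPM. Cells with 6000 or more detected genes were left out by the filter, and 188 of them had at least 3 rule genes at the threshold. The number of 434 thus depends on each of these criteria.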
